A study of Mus musculus with 35 samples.

Results

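The 10 genes described here, Npy, Vgf, Penk, Pdyn, Tac1, Cck, Scg2, Gal, Sst and Nts, encode neuropeptide precursors and granins that neurons store in dense-core vesicles. They were picked by name as transcripts known to respond to seizures, with earlier results of these data known, and all 10 were found among the 32544 genes of the count files. Their transcripts were counted in mouse hippocampus 24 h or 2 weeks after an injection into the amygdala of kainic acid (KA, the IA-KA model), a glutamate receptor agonist that triggers status epilepticus, or of PBS as the vehicle control. Per the study's methods the animals were adult male C57BL/6JOlaHsd mice, the KA mice received lorazepam against the seizures, and no genetic change is named. Each library came from 1 mouse. One kind (m6A) was made from RNA pulled down with an antibody against N6-methyladenosine, which the labels call polyA RNA, and the other (input) from total RNA, so that selection of polyA RNA and pulldown go together. The m6A libraries came from 5 KA and 3 PBS mice at 24 h and from 6 KA and 5 PBS mice at 2 weeks. The input libraries came from 4 KA and 3 PBS mice at 24 h and from 6 KA and 3 PBS mice at 2 weeks.

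Neuropeptide precursors are cut into peptides inside dense-core vesicles and released during sustained firing, and the peptides then act on G protein-coupled receptors. Neuropeptide Y and galanin are known to restrain glutamate release in the hippocampus, somatostatin and cholecystokinin are made mainly by interneurons there, and the opioid precursors proenkephalin and prodynorphin are made by granule cells. VGF and secretogranin II (encoded by Scg2) are granin-family proteins whose genes are known to respond to neuronal activity. Tac1 encodes the precursor of substance P and Nts that of neurotensin.

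Many genes of this kind are known targets of CREB, a factor that binds the cAMP response element (CRE), so the promoters were read for it. The promoter windows run from 250 bases before to 50 bases after the annotated start and come from RefSeq for GRCm38.p6, the build that the labels call mm10. Of the 10 genes, 8 matched this table with 9 windows in all (Pdyn has 2), and Penk and Vgf did not match. The letters searched on both strands were the full CRE TGACGTCA, the shorter TGACG (which every full site also holds), the AP-1 site TGACTCA and the CRE-like TGCGTCA (which holds TGACG on the other strand). The full CRE stood in the windows of Scg2 and Sst, against 1.79% of all 32851 promoter windows. The CRE-like letters stood in Tac1 and Cck (2.12% of all windows), the AP-1 site in Nts (5.2%) and the shorter TGACG in 6 windows, those of Cck, Gal, Nts, Scg2, Sst and Tac1 (20.8%). The windows of Npy and Pdyn held none of these letters. The windows of Scg2 and Sst are printed because they hold the full site, and that of Gal because its transcript differed most between the groups at 24 h. Capitals mark the matches, which begin at base -68 in Scg2 (chr1:79439977-79440276, minus strand), at base -48 in Sst (chr16:23890795-23891094, minus strand) and at base 20 after the start in Gal (chr19:3414495-3414794, minus strand).
Scg2: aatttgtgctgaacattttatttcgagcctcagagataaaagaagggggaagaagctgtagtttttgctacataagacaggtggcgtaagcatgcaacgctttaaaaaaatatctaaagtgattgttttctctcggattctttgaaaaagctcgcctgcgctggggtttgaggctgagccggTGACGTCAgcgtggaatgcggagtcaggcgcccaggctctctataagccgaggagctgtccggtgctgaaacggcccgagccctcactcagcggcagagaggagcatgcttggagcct
Sst: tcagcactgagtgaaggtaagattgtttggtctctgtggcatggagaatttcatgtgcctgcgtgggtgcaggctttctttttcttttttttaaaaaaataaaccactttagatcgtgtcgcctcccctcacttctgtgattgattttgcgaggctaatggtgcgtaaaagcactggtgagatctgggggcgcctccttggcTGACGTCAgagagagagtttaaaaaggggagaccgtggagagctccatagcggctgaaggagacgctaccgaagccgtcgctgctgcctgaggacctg
Gal: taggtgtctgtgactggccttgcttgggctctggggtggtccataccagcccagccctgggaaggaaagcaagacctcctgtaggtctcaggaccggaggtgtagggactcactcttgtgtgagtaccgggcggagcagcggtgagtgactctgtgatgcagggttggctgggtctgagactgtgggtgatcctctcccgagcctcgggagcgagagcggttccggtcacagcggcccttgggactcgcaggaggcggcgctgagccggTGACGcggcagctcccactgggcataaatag
A match describes these letters only, and factor binding was not measured. Scg2 and Sst share the full site, and their levels after KA are given side by side below.

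Total counts ran from 1652933 to 34564536 in the 19 m6A libraries and from 3171 to 12694434 in the 16 input libraries. The 3 input libraries under 100000 counts, KA mouse 97 and PBS mice 71 and 73, all at 24 h, were left out of every comparison unless named, so that the input comparison at 24 h set 3 KA mice against PBS mouse 1 alone. KA mouse 8 at 24 h stood apart in both of its libraries, with mitochondrial shares of 17.4% in input and 16.4% in m6A. At 2 weeks the m6A library of KA mouse 6 had a share of 17.5%, the highest of all, and that of KA mouse 7 had 11.1%. The m6A columns carry a prefix, 3, 4 or 5, that is read here as a library set. At 24 h the KA mice 67, 98 and 8 were in set 3, KA mice 97 and 79 and PBS mice 71 and 73 in set 4, and PBS mouse 1 in set 5. At 2 weeks the KA mice 42, 5 and 6 were in set 3 and KA mice 21, 7 and 9 in set 5, with PBS mice 50 and 78 in set 4 and PBS mice 2, 3 and 4 in set 5. Levels are given below as CPM, the count scaled to a common library total, and a call means an adjusted P under 0.05 over all genes tested with edgeR. None of the 8 hippocampus markers was at 0 throughout any group, and their summed level ran from 324 to 1503 CPM in the m6A libraries. The 5 hypothalamus markers together stayed between 0.504 and 6.68 CPM there.

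At 24 h none of the 10 members was called in the m6A libraries, against 0.00607% of all 16470 genes tested (1 gene). An unadjusted P under 0.05 was found for 5 members. The largest of these 5 P values, that of Tac1, ranked 658 among the 16470 genes, so many other genes passed this threshold too. The log2 fold change was above 0 for all 10 members, with a median of 1.09, while it was above 0 for 58.0% of all genes tested with a median of 0.083. Marker lists moved beside it with no gene called, and the hippocampus markers had 1 of 8 above 0 (median -0.67), the inhibitory neuron markers 2 of 9 (median -0.32), the choroid plexus markers 5 of 5 (median 0.86) and the thalamus markers 4 of 4 (median 0.44). The part of tissue composition in the members' values was not tested. For Pdyn the value was 0.01 and turned below 0 under several alternatives, among them DESeq2 (-0.017) and the scaling by library size (-0.024). Gal, Npy, Scg2, Tac1 and Penk were the 5 members under that unadjusted threshold. With voom and quality weights 4 members (Npy, Penk, Scg2 and Gal) were called, where 6.8% of all genes were, and without the filter on low counts Gal alone was (0.0739% of all genes). Library size scaling called no member (0.0182% of all genes). The KA libraries lay above every PBS library for Gal alone among the 10, which was so for 2.62% of all genes, and no member lay wholly below (1.09% of all genes).

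Gal, the galanin precursor (chr19:3409915-3414544), showed the largest fold of the 10 at 24 h in the m6A libraries. Its level was 7.07, 1.81, 5.50, 4.03 and 1.93 CPM in KA mice 67, 98, 97, 79 and 8, and 0.394, 0.0715 and 0.295 CPM in PBS mice 71, 73 and 1. The groups did not overlap, although the PBS values rest on 11, 1 and 4 counts and the lowest KA value, that of mouse 98, on 3 counts. The fitted difference was 14.5-fold (log2 3.86 ± 0.68, SE, 5 KA and 3 PBS mice, adjusted P = 0.131), and it was not called. It was called without KA mouse 8 (log2 3.97, adjusted P = 0.0274, where 0.279% of all genes were called) and by DESeq2 (adjusted P = 7.37e-06, 0.947% of all genes). Over all 15 alternatives its adjusted P ran from 7.37e-06 to 0.768, and its log2 difference from 3.48 to 4.31.

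Npy, the neuropeptide Y precursor (chr6:49822710-49829507), was at 48.0, 37.5, 39.95, 36.2 and 15.7 CPM in the same KA mice and at 14.9, 13.2 and 15.8 CPM in the PBS mice. Of the 5 KA mice 4 lay above all PBS mice, and mouse 8 lay among them. The difference was 2.31-fold (log2 1.21 ± 0.29, adjusted P = 0.324) and was not called. Without mouse 8 it was called (log2 1.36, adjusted P = 0.0429), and its adjusted P over the 15 alternatives ran from 0.000456 to 1.00.

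**Figure D1:**
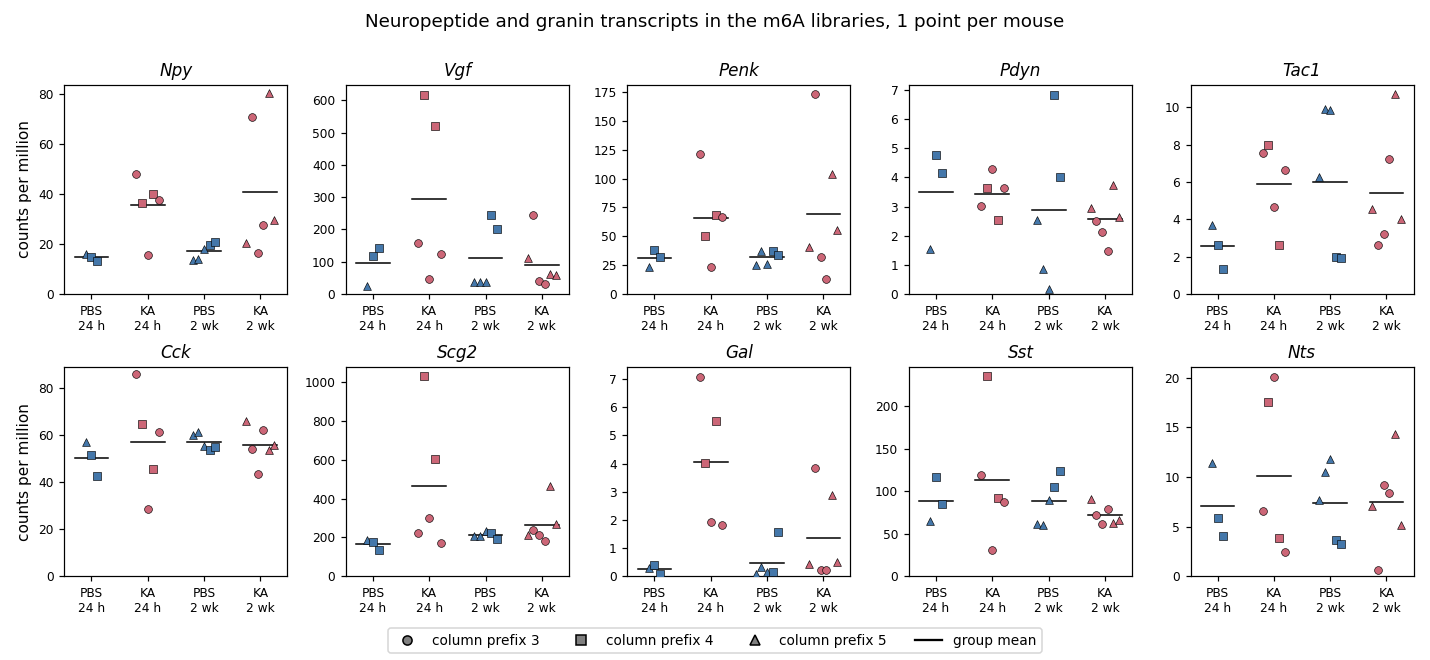
Levels in CPM of the 10 transcripts in the 19 m6A libraries, 1 point per mouse, PBS in blue and KA in red at 24 h and 2 weeks, with the marker shape giving the library set and the bar the group mean. Each vertical axis starts at 0 and has its own scale. For Gal at 24 h the 5 KA points (1.81 to 7.07) lie above the 3 PBS points (0.0715 to 0.394), and for Vgf the points of set 4 lie above those of set 5 in PBS mice.

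Scg2, which encodes secretogranin II (chr1:79434366-79440026), was at 220, 169, 602, 1033 and 302 CPM in KA mice 67, 98, 97, 79 and 8 and at 175, 137 and 185 CPM in PBS mice 71, 73 and 1. The 2 KA mice of library set 4 were highest by a wide margin, and KA mouse 98 lay within the PBS range. The difference was 2.73-fold (log2 1.45 ± 0.55, adjusted P = 0.813). Within set 4 alone, with 2 mice a group, it was 2.27 on the log2 scale (adjusted P = 0.0185, where 2.11% of all genes were called). The same set as a block in the fit of all 8 libraries gave 2.27 with an adjusted P of 0.528.

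Vgf, which encodes the granin-family protein VGF (chr5:137025301-137033351), was at 157, 124, 520, 618 and 46.8 CPM in KA mice 67, 98, 97, 79 and 8 and at 118, 142 and 23.4 CPM in PBS mice 71, 73 and 1. Within set 4 the 2 KA mice were above the 2 PBS mice, whereas over all mice the groups overlapped. The difference over all mice was 2.88-fold (log2 1.53 ± 0.81, adjusted P = 0.983). Within set 4 it was 2.00 on the log2 scale and was called (adjusted P = 0.0088, where 2.11% of all genes were called). With the set as a block it was 2.00 with an adjusted P of 0.522, an estimate that rests on set 4 as well.

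Over set 4 at 24 h, 5 members (Npy, Vgf, Penk, Scg2 and Gal) had both KA mice above both PBS mice, and 1 (Pdyn) had them below. With 2 mice a group this was so for 35.7% of all genes above and 16.1% below. Of these members 4 were called within the set, where 2.11% of all genes were called, in a fit chosen after seeing the data. The exceptions were Penk (log2 0.64, adjusted P = 0.127) and Pdyn (log2 -0.63).

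Penk, the proenkephalin precursor (chr4:4133536-4138815), was at 122, 67.2, 68.1, 50.5 and 23.4 CPM in KA mice 67, 98, 97, 79 and 8 and at 38.3, 31.6 and 23.5 CPM in the PBS mice. KA mouse 8 was the lowest of all 8, and the other 4 KA mice were above every PBS mouse (log2 1.00 ± 0.40, adjusted P = 0.827). Tac1, the substance P precursor gene (chr6:7555061-7562978), was between 2.60 and 8.00 CPM in KA and between 1.36 and 3.69 CPM in PBS mice (log2 1.18 ± 0.48, adjusted P = 0.880). Penk and Tac1 are also abundant in striatal neurons, and the 6 striatum markers had log2 fold changes above 0 here (6 of 6, median 0.67), with none called. Their summed level was 54.7 to 144 CPM in KA and 53.4 to 64.0 CPM in PBS mice, and none of them was at 0 in a group. KA mouse 98 had the highest sum (144 CPM) and KA mouse 79 the lowest of the KA mice (54.7 CPM). The part of striatal RNA in the Penk and Tac1 values was not tested.

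The remaining members had log2 differences at 24 h that were smaller than their SE. Sst, the somatostatin precursor (chr16:23889573-23891342), was at 30.9 to 236 CPM in KA and 64.6 to 117 CPM in PBS mice (log2 0.27 ± 0.46). KA mouse 79 was the highest for Sst and for Scg2, which share the full CRE, and also for Vgf, which had no promoter window. KA mouse 8 was the lowest of all for Sst (30.9 CPM) but lay above every PBS mouse for Scg2 (302 CPM). Nts (chr10:102481756-102490418) was at 2.42 to 20.1 CPM in KA and 4.01 to 11.4 CPM in PBS mice (log2 0.67 ± 0.72). Cck, the cholecystokinin precursor gene (chr9:121489824-121495694), was at 28.6 to 85.9 CPM in KA and 42.7 to 56.9 CPM in PBS mice (log2 0.12 ± 0.28). Pdyn, the prodynorphin gene (chr2:129686549-129699938), was at 2.52 to 4.30 CPM in KA and 1.55 to 4.77 CPM in PBS mice (log2 0.01 ± 0.48).

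**Figure D2:**
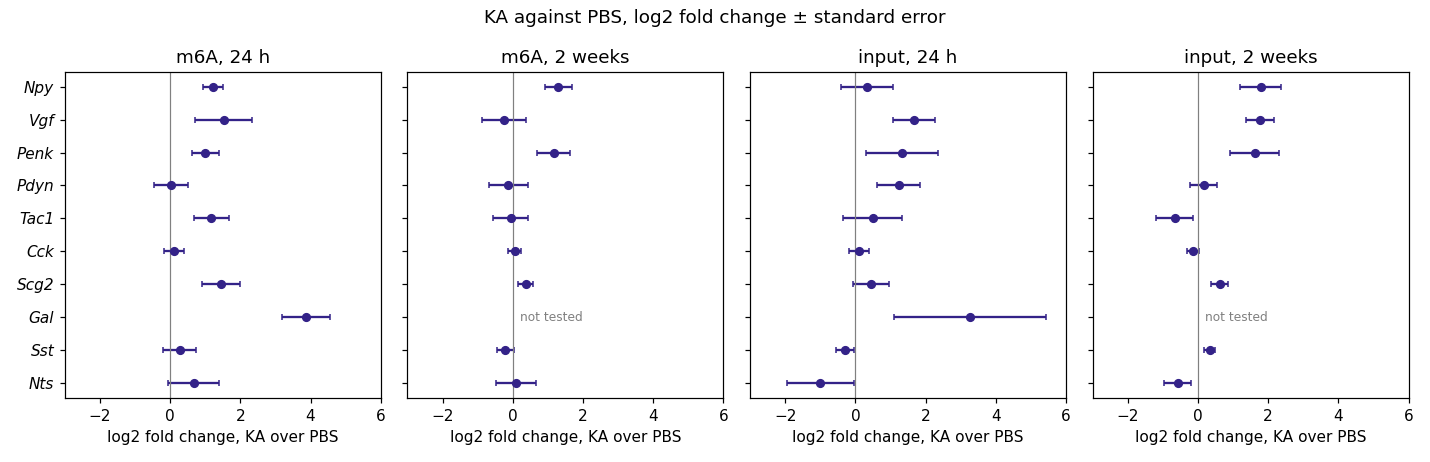
Log2 fold change of KA over PBS for the 10 genes in 4 comparisons, points with bars of 1 standard error. The vertical line marks 0, and Gal was not tested in the 2 comparisons at 2 weeks because it did not pass the filter on low counts. In the m6A libraries at 24 h all 10 points lie above 0 and Gal is at 3.86, and at 2 weeks Npy (1.30) and Penk (1.17) are the highest.

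At 2 weeks, when IA-KA mice have spontaneous seizures, no member was called in the m6A libraries. No gene at all was called there (0% of 16157 tested, with 809 genes under an unadjusted P of 0.05, and 15 genes or 0.0928% called by DESeq2, no member among them). Of the 9 members tested 5 had a log2 fold change above 0, with a median of 0.06 against a median of 0.00 over all genes, and 2 members (Npy and Penk) had an unadjusted P under 0.05. No member had all KA above or all below all PBS libraries, which was so for 0.26% and 0.334% of all genes.

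Npy at 2 weeks was at 70.8, 16.3, 27.5, 20.3, 80.3 and 29.4 CPM in KA mice 42, 5, 6, 21, 7 and 9. In PBS mice 50, 78, 2, 3 and 4 it was at 19.6, 20.9, 13.8, 13.9 and 17.9 CPM. Mice 42 and 7 were the highest by far, and mice 5 and 21 lay within the PBS range (log2 1.30 ± 0.39, adjusted P = 0.875). Penk was at 173, 32.2, 12.98, 40.4, 104 and 55.2 CPM in KA mice 42, 5, 6, 21, 7 and 9 and at 25.1 to 37.4 CPM in the PBS mice. Again mice 42 and 7 were highest, while mouse 6 lay below every PBS mouse (log2 1.17 ± 0.48, adjusted P = 0.875). Without mouse 6, Penk was at 1.37 ± 0.41 and Npy at 1.35 ± 0.42 on the log2 scale, and without mouse 7 they were at 1.03 ± 0.50 and 1.02 ± 0.36, with none called. Gal was at 3.85 and 2.88 CPM in mice 42 and 7, between 0.205 and 0.504 CPM in the other 4 KA mice, and between 0.0720 and 1.56 CPM in the PBS mice. The highest PBS value was that of mouse 78, from 16 counts. Gal did not pass the filter on low counts here, so it has no test.

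The same 2 mice stood out in input. Npy in input at 2 weeks was at 38.7, 16.03, 17.6, 10.02, 69.7 and 20.9 CPM in KA mice 42, 5, 6, 21, 7 and 9 and at 11.3, 5.13 and 8.91 CPM in PBS mice 2, 3 and 4. Penk in input was at 120, 20.6, 10.98, 50.6, 73.1 and 36.4 CPM in the same KA mice and at 15.3, 19.4 and 16.6 CPM in the PBS mice. Gal in input was at 2.19 CPM in mouse 42 and 3.84 CPM in mouse 7, from 7 and 30 counts, and at 1 or 2 counts in each of the other 4 KA mice. It had no count in the 3 PBS libraries, which together hold 13730498 counts, so that up to 3 counts (0.218 CPM over the group) remain possible, and the KA mean of 1.16 CPM was at least 5.32-fold higher than that floor. This mean rests on mice 42 and 7. For Npy, Penk and Gal the 2 highest mice of the 6 were thus mice 42 and 7 in the pulldown and in input, in libraries made from the same animals. They were not alike throughout, since Vgf in input was at 115 CPM in mouse 42 and 49.6 CPM in mouse 7, and Nts in the m6A libraries was lowest of the KA mice in mouse 42 (0.579 CPM) and highest in mouse 7 (14.3 CPM). Summed astrocyte markers in input were 7260 CPM in mouse 42 and 4375 CPM in mouse 7, against 3116 to 6651 CPM in the other 4 KA mice. The part of cell composition in these values was not tested, and in bulk tissue fewer cells of a type and less RNA per cell cannot be told apart.

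**Figure D3:**
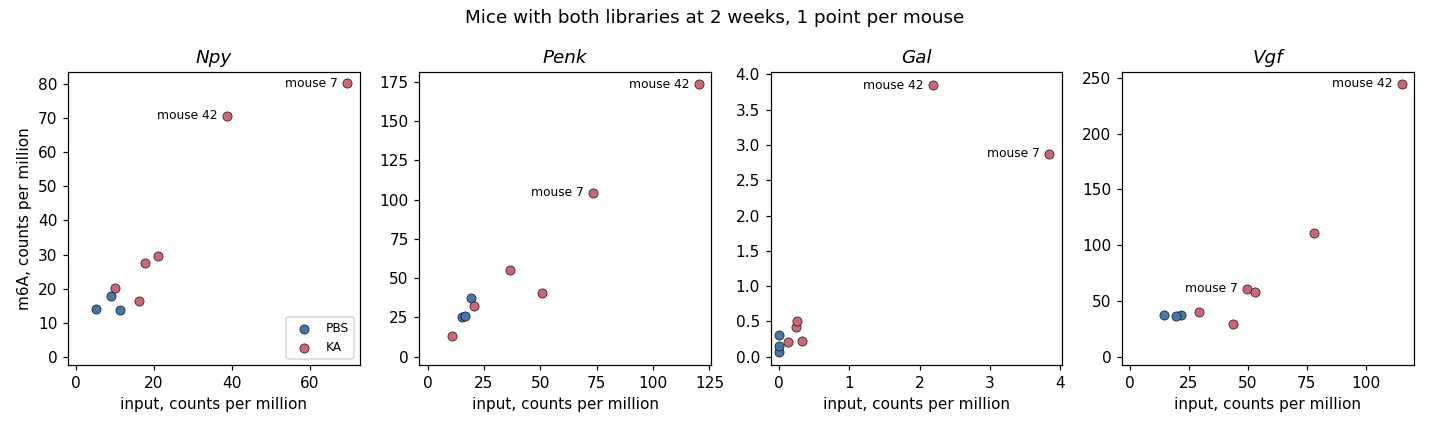
Input (horizontal) against m6A (vertical) CPM of Npy, Penk, Gal and Vgf at 2 weeks in the 3 PBS mice (blue) and 6 KA mice (red) that have both libraries, 1 point per mouse. Mice 42 and 7 are named, and they lie apart from the other mice for Npy, Penk and Gal, whereas for Vgf mouse 7 (49.6 CPM in input) lies among the other KA mice.

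Vgf in input separated the groups at 2 weeks. Gal did so too, but on 1 count each in KA mice 5, 6 and 21 against no count in the PBS libraries. Vgf was at 115, 29.1, 43.8, 78.2, 49.6 and 53.1 CPM in KA mice 42, 5, 6, 21, 7 and 9 and at 21.8, 14.3 and 19.4 CPM in PBS mice 2, 3 and 4. Every KA mouse was above every PBS mouse, which among the 9 members tested was so for Vgf alone, against 2.64% of all genes, and no member had every KA mouse below (3.8% of all genes). The difference was 3.39-fold (log2 1.76 ± 0.39, 6 KA and 3 PBS mice, adjusted P = 0.242) and was not called. Over its 16 alternatives the log2 difference ran from 1.47 to 2.06 and the adjusted P from 0.00116 to 0.769, with calls by DESeq2 (0.844% of all genes called) and by voom with quality weights (adjusted P = 0.0269, 2.49% of all genes). Within the libraries without a column prefix, 3 KA and 3 PBS mice, it was 2.06 (adjusted P = 0.163). There 3 of the 9 members tested, Vgf, Penk and Scg2, had every KA above every PBS mouse (6.73% of all genes) and no member had them below (11.9%).

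None of the 9 members tested was called in input at 2 weeks (0% of 13752 genes called, with 1938 genes under an unadjusted P of 0.05), and 4 (Vgf, Npy, Scg2 and Penk) had an unadjusted P under 0.05. The log2 differences of the other 3 were 1.78 ± 0.58 for Npy (adjusted P = 0.277), 1.61 ± 0.71 for Penk (adjusted P = 0.354) and 0.61 ± 0.24 for Scg2 (adjusted P = 0.299). Scg2 in input was at 126 to 298 CPM in KA and 97.2 to 129 CPM in PBS mice. Of the rest, Sst was at 39.2 to 58.6 CPM in KA and 37.4 to 45.8 CPM in PBS mice (log2 0.33 ± 0.16), and Cck at 36.6 to 64.9 CPM in KA and 50.8 to 66.4 CPM in PBS mice (log2 -0.15 ± 0.17). Nts was at 1.87 to 8.55 CPM in KA and 6.29 to 8.84 CPM in PBS mice (log2 -0.58 ± 0.38), Tac1 at 1.31 to 7.93 CPM and 3.15 to 9.69 CPM (log2 -0.66 ± 0.52), and Pdyn at 1.87 to 2.69 CPM and 0.570 to 3.11 CPM (log2 0.16 ± 0.38).

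At 24 h the input comparison had a lone PBS library, whose spread had to be taken from the other groups. None of the 10 members was called (0% of 17644 genes, with 1628 under an unadjusted P of 0.05, and 197 called by DESeq2), and Vgf alone had an unadjusted P under 0.05. With voom and quality weights, Vgf was called higher (log2 1.81, adjusted P = 0.0268) and Nts lower (log2 -3.11, adjusted P = 0.0144), where 6.1% of all genes were called. Vgf was at 80.4, 98.5 and 55.1 CPM in KA mice 67, 98 and 8 and at 29.7 CPM in PBS mouse 1 (log2 1.67 ± 0.60, adjusted P = 0.436). Vgf, Pdyn and Gal lay above and Sst and Nts below the PBS mouse in all 3 KA mice, but against 1 mouse this was so for 10.9% of all genes above and 33.1% below. Gal was at 2.36, 0.256 and 1.41 CPM in KA mice 67, 98 and 8 and at 0.158 CPM in PBS mouse 1. The value of KA mouse 98 was 1 count, and that of PBS mouse 1 was 2 counts in a deeper library. Pdyn was at 3.46, 4.35 and 3.13 CPM in these KA mice against 1.89 CPM. Nts was at 3.27, 0.768 and 16.6 CPM in the KA mice and 19.4 CPM in the PBS mouse (log2 -0.996 ± 0.957). Without KA mouse 8 it was -2.93 ± 0.68 (adjusted P = 0.0516, edgeR). Sst was at 54.6 to 59.9 CPM against 86.6 CPM (log2 -0.29 ± 0.25). Npy, which in the m6A libraries was higher in 4 of 5 KA mice than in any PBS mouse, was at 18.4, 21.8 and 18.0 CPM in input of KA mice 67, 98 and 8 and at 18.9 CPM in PBS mouse 1 (log2 0.34 ± 0.74). Penk was at 65.1, 37.1 and 15.5 CPM in the KA mice and 18.6 CPM in the PBS mouse (log2 1.33 ± 1.02). The log2 differences of Scg2, Tac1 and Cck were 0.44 ± 0.50, 0.49 ± 0.83 and 0.10 ± 0.29. These fitted values follow TMM scaling, which the CPM do not. Over all 17644 genes the median fitted log2 difference was 0.27, and 65.9% of genes were above 0. In CPM, Cck was at 35.7 to 56.8 in the KA mice and at 52.2 in the PBS mouse.

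The library set, of which the sources used here do not say what it marks, moved with Vgf. In PBS mice of both times Vgf was at 118 to 245 CPM in the 4 m6A libraries of set 4 and at 23.4 to 37.6 CPM in the 4 of set 5. Of the 10 members, Vgf and Pdyn were higher in every PBS library of set 4 than in every one of set 5 (19% of all 17440 genes tested), and Tac1, Cck and Nts were lower (19% of all genes). Tac1 was at 1.36 to 2.62 CPM in set 4 and 3.69 to 9.89 CPM in set 5. Summed markers moved with the sets too, at 3556 to 4145 CPM in set 4 and 1493 to 1922 CPM in set 5 for the 6 excitatory neuron markers and at 413 to 504 CPM and 581 to 671 CPM for the 9 inhibitory neuron markers. Set 4 held 2 PBS mice of each time and set 5 held 1 of 24 h and 3 of 2 weeks, and the part of cell composition in these differences was not tested.

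Vgf at 2 weeks turned direction with the set. Its m6A level was 244, 40.4, 29.2, 111, 61.0 and 58.2 CPM in KA mice 42, 5, 6, 21, 7 and 9, against 245 and 202 CPM in PBS mice 50 and 78 and 37.6, 36.9 and 36.5 CPM in PBS mice 2, 3 and 4. Over all mice the log2 difference was -0.24 ± 0.62 (adjusted P = 0.948), and within set 5, where KA mice 21, 7 and 9 lay above all 3 PBS mice, it was 1.13 (adjusted P = 0.956). With the set as a block it was 1.11, an estimate that rests on set 5 as well, since set 3 held only KA and set 4 only PBS mice at 2 weeks. In set 5, 4 of the 9 members tested (Npy, Vgf, Penk and Pdyn) had every KA above every PBS mouse, against 3.95% of all genes tested, and none had them below (7.24%). None was called within the set by edgeR (0% of 16017 genes, with 590 under an unadjusted P of 0.05). Over all mice the other members at 2 weeks differed little in the m6A libraries. Scg2 was at 179 to 465 CPM in KA and 193 to 232 CPM in PBS mice (log2 0.37 ± 0.22), Sst at 61.4 to 91.2 CPM and 60.0 to 124 CPM (log2 -0.21 ± 0.23), and Cck at 43.3 to 65.9 CPM and 53.4 to 61.2 CPM (log2 0.06 ± 0.18). Tac1 was at 2.60 to 10.7 CPM and 1.95 to 9.89 CPM (log2 -0.06 ± 0.50), Nts at 0.579 to 14.3 CPM and 3.22 to 11.9 CPM (log2 0.09 ± 0.56) and Pdyn at 1.46 to 3.73 CPM and 0.152 to 6.84 CPM (log2 -0.13 ± 0.56). Pdyn turned with the set too, to a log2 difference of 1.39 within set 5, which was not called. In PBS mice of both times Pdyn was at 4.00 to 6.84 CPM in set 4 and 0.152 to 2.52 CPM in set 5, and the lowest of these values was 1 count.

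**Figure D4:**
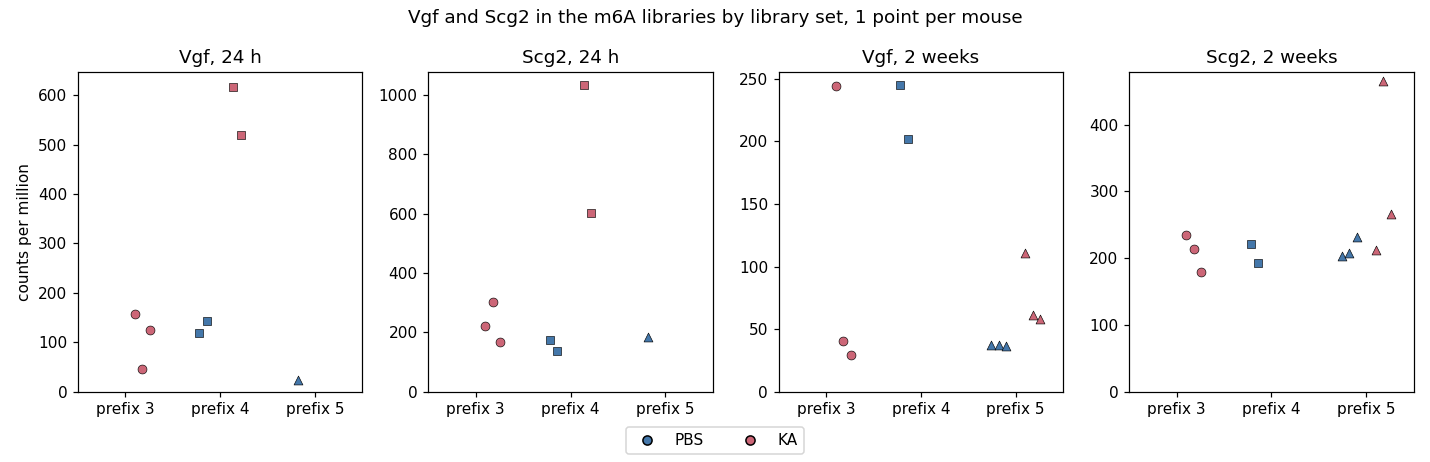
Levels in CPM of Vgf and Scg2 in the m6A libraries at 24 h and 2 weeks by library set (column prefix), 1 point per mouse, PBS in blue and KA in red, with axes from 0. In set 4 at 24 h the 2 KA mice (Vgf 520 and 618, Scg2 602 and 1033) lie above the 2 PBS mice, and at 2 weeks the 2 PBS mice of set 4 (Vgf 245 and 202) lie above the 3 of set 5.

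Whether the KA difference itself changed between 24 h and 2 weeks was tested as an interaction over the 19 m6A libraries. No member was called (0.00573% of 17440 genes were called, 1 gene, and 0.0115% with the set as a block), and none had an unadjusted P under 0.05. The largest differences, all lower at 2 weeks, were -2.21 ± 1.33 for Gal, -1.79 ± 1.09 for Vgf, -1.22 ± 0.76 for Tac1 and -1.08 ± 0.54 for Scg2 on the log2 scale. With the set as a block Vgf was at -0.78 ± 0.62 and Gal at -1.80 ± 1.42. Without PBS mouse 78 at 2 weeks Gal was at -0.90 ± 1.29, and without KA mouse 42 at -2.89 ± 1.29. Npy (0.09 ± 0.53) and Penk (0.16 ± 0.69) differed least in size besides Cck (-0.06 ± 0.31) and Pdyn (-0.14 ± 0.83), and Sst (-0.48 ± 0.50) and Nts (-0.58 ± 0.96) lay between.

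The level of the transcripts in m6A beside input libraries was read from PBS mice at 2 weeks. Selection of polyA RNA and pulldown go together here and cannot be told apart. None of the 9 members tested was called, against 1.12% of 15128 genes (0.37% higher and 0.754% lower in m6A). Of these members 5 (Scg2, Sst, Vgf, Npy and Penk) had an unadjusted P under 0.05. The largest of these 5 P values, that of Penk, ranked 1336 among the 15128 genes, so many other genes passed this threshold too. Vgf was highest, at 2.36 ± 0.77 (log2, m6A over input, adjusted P = 0.191). Sst was at 0.89 ± 0.29, Npy at 0.79 ± 0.28, Penk at 0.64 ± 0.23 and Scg2 at 0.62 ± 0.18 (adjusted P = 0.153 for Scg2), whereas Cck was at -0.34 ± 0.16. DESeq2 called Vgf and Scg2 (4.88% of all genes), and library size scaling (2.27%) and voom (7.83%) called Scg2. Over the 3 mice with both libraries, the replicate block by mouse brought the number of genes called from 170 to 57 and Vgf to 0.77 (adjusted P = 0.132), and leaves out PBS mice 50 and 78 of set 4, which have no input library. In those 3 mice the ratio of m6A to input CPM was 1.73 to 2.59 for Vgf, 1.62 to 2.39 for Scg2, 1.33 to 2.35 for Sst and 0.84 to 1.21 for Cck. Pdyn (log2 0.31 ± 0.89), Tac1 (-0.11 ± 0.67) and Nts (-0.28 ± 0.46) differed by less than their spread. Neurod6, a transcription factor of excitatory neurons, was the list gene called in this comparison (log2 1.30 ± 0.24, adjusted P = 0.0380).

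The change of m6A over input with KA at 2 weeks was called for no member and for no gene (0% of 16141 genes, with 655 under an unadjusted P of 0.05, and 4 called by DESeq2). Vgf was at -2.03 ± 0.90 (adjusted P = 0.807), and at -0.65 with the replicate block by mouse. Among the others tested, Sst was at -0.54 ± 0.31, Npy at -0.48 ± 0.68, Penk at -0.45 ± 0.82, Scg2 at -0.24 ± 0.34, Pdyn at -0.33 ± 0.80, Cck at 0.21 ± 0.25, Tac1 at 0.67 ± 0.80 and Nts at 0.69 ± 0.80. Gal also passed the filter here, but with no count in the PBS input libraries its fitted value has no bound and is not given.

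The genes that receive, cut or store these peptides were counted from lists written by hand. Of the 23 receptor genes listed (22 in the files) 19 were tested at 24 h in the m6A libraries, and none was called, with 8 above 0 and a median log2 difference of -0.20 (all genes 0.083). Scg5 is in the processing list and the granin list, and the precursor list also holds Bdnf and Igf1, which encode growth factors. Of 15 processing and dense-core vesicle genes none was called, with 8 above 0 and a median of 0.02, and of 4 other granins none was called, with 1 above 0 and a median of -0.40. Of 18 other neuropeptide precursor genes 15 were tested, and none was called, with 14 above 0 and a median of 0.70. At 2 weeks in the m6A libraries the same precursor list had 10 of 13 above 0 with a median of 0.62, the receptors 6 of 18 (median -0.22), the processing genes 6 of 15 (median -0.03) and the granins 2 of 4 (median 0.00). In input the precursors had 9 of 13 above 0 at 24 h (median 0.81) and 5 of 7 at 2 weeks (median 0.36), with none called in any of these lists at either time. The 9 microglia markers, given as a measure of other cells, had 9 of 9 above 0 in input at 2 weeks (median 0.84, none called), and the 6 astrocyte markers 6 of 6 (median 0.65, none called).

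The genes most like Gal over the 19 m6A libraries, by Pearson correlation of log2 CPM among 15548 genes, were Galnt15 (0.92), Serpina3n (0.90) and Osmr (0.90). Serpina3n encodes a protease inhibitor made by reactive astrocytes and Osmr the oncostatin M receptor. Those most like Npy were Nptx2 (0.81), an activity-regulated pentraxin gene, and 2 members of the set, Penk (0.80) and Gal (0.78). The libraries share sets, depth and animals' treatment, so these values are descriptions.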

How the data were processed

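Hippocampal RNA of single mice was sequenced as m6A or input libraries, made with the SMARTer Stranded Total RNA-Seq Kit v2 per the labels. Values are whole-number counts by gene, as the authors deposited them in 15 files with 4 lanes to a library. The build is mm10 by the submitters' processing notes, while aligner, counting program and strand setting were not given in the sources used here. Reads of overlapping genes may have been split or shared. Lanes of 140 columns were summed to 35 libraries, and 8 columns of mice listed without an input library were not used. The columns of some libraries name no assay, and a numeric prefix was then read as m6A. Groups and mouse numbers came from the labels. Each mouse is 1 sample, and no pair of libraries in a group agreed within sampling noise (chi-square per degree of freedom at least 5.12 over 59 pairs).

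Levels are CPM of the library total. Tests used edgeR 4.0.16 in R 4.3.3 on the counts, with TMM scaling, filterByExpr by group, robust quasi-likelihood fits, Benjamini-Hochberg adjustment over all genes tested and a threshold of 0.05. Fits held the compared groups, except that input at 24 h was fitted with all 13 input libraries of 100000 or more counts. The SE is the absolute log2 fold change over the square root of F. Intervals and floors of 3 counts cover counting error only. The number of counts limits what low genes such as Gal can show. Alternatives were DESeq2 1.42.0, voom with quality weights (limma 3.58.1), library size scaling, no filter, other samples in the fit, the library set as a block, the mouse as a replicate block, each library left out and, chosen after seeing the data, 1 library set alone. Mouse numbers pair m6A and input libraries of the same animal. The deviations of a mouse's 2 libraries from their group means correlated at 0.74 to 0.87 in 3 KA mice at 24 h, 0.13 to 0.67 in 6 KA mice and 0.02 to 0.22 in 3 PBS mice at 2 weeks. Fits were checked on simulated counts with the same dispersion for every gene and no library sets. That check does not cover the spread between these mice or the library sets. Named genes are the 10 members, up to 3 called genes per other list and comparison, and the 3 genes most correlated (prior count 2, mean of at least 1 CPM) with the member of smallest P in each m6A comparison. The members and lists were chosen with earlier results of these data known. Tables and plots used Python 3.11.15, pandas 2.3.3 and matplotlib 3.10.9.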

Additional observations from a re-analysis of the deposited data

Results flagged for a closer look

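Levels of the 10 members were screened for a lone mouse far from the rest in 40 sets of 5 or 6 libraries, 1 for each gene and group. Of these sets 3 were flagged. Chance alone gives about 1 in 20 sets, so this number is near what chance gives. Tac1 in input of KA mice at 2 weeks was at 7.93 CPM in mouse 7, with the next mouse at 3.18 CPM. Scg2 in m6A libraries of KA mice at 2 weeks was at 465 CPM in mouse 7, with the next mouse at 267 CPM. Gal in m6A libraries of PBS mice at 2 weeks was at 1.56 CPM in mouse 78, with the next mouse at 0.305 CPM. No member's KA difference was called different between the 2 times.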

How the results depend on the processing

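Of 1149 values of the members under alternatives, 1046 kept their direction and side of the threshold. Of the rest, 21 came to be called, 82 turned direction and 0 lost a call. No member was called in any reported fit, which left no call to lose, and keeping the side of the threshold meant staying uncalled. The cause of the new calls and of the turns was not tested. Alternatives within 1 library set were chosen after seeing the data.

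Genes called in the m6A libraries at 24 h (1 in the reported fit) numbered 156 with DESeq2, 3 with library size scaling, 22 without the filter, 1120 with voom, 31 in a fit of all 19 m6A libraries, 0 with the set as a block, 356 in set 4 and 0 to 45 with a library left out, 45 without KA mouse 8. Members called there (0) numbered 2 with DESeq2, 1 without the filter, 4 with voom, 4 in set 4 and 0 to 2 with a library left out, 2 without KA mouse 8. At 2 weeks (0) genes numbered 15 with DESeq2, 2 without the filter, 2 with voom, 1 in the fit of 19 and 0 to 1 with a library left out. In input at 24 h (0) they numbered 197, 1 with library size, 3 without the filter, 1076 with voom, 8 with all 16 libraries and 1 to 180 with a library left out, 180 without KA mouse 8, and 2 members were called with voom. In input at 2 weeks (0) they numbered 116 with DESeq2, 4 without the filter, 342 with voom and 0 to 1 with a library left out, and 1 member, Vgf, was called with DESeq2 and with voom. For the difference between times (1) they numbered 5 with DESeq2, 62 with voom and 2 with the set as a block.

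For m6A over input in PBS mice (170) genes numbered 738 with DESeq2, 343 with library size, 1184 with voom and 57 with the mouse as a replicate block. Left out 1 at a time, the libraries gave 20 to 417, and the count moved by over 1.5 times without the input of mice 2 (75), 3 (20) or 4 (36) and the m6A library of mice 50 (111), 78 (90), 3 (107) or 4 (417). Members called (0) numbered 2 with DESeq2, 1 with library size and 1 with voom. The change of m6A over input (0) gave 4 with DESeq2 and 1 with the replicate block.

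Directions turned as follows on the log2 scale. In m6A at 24 h Pdyn was -0.017 with DESeq2, -0.024 with library size, -0.21 without the filter, -0.61 with voom, -0.65 with the set as a block and -0.63 in set 4. In m6A at 2 weeks Cck was -0.031 with library size and -0.14 with voom, and with voom, the set as a block and set 5 alone Vgf was 0.11, 1.11 and 1.13 and Pdyn 0.59, 1.37 and 1.39. With the block and in set 5 Sst was 0.11 and 0.13 and Nts -0.14 and -0.12. In input at 24 h Cck was -0.19 with library size and Scg2 -0.058 with voom. Between times Npy was -0.025 with library size and -0.11 with voom, and Pdyn 1.12 with voom and 0.17 with the set as a block. For m6A over input Tac1 was 0.17 with library size, 0.14 with voom and 0.57 with the replicate block, Pdyn -0.26 with voom and -1.08 with that block, and Nts 0.16 with it. Its change with KA was 0.0043 for Penk, 0.51 for Pdyn and 0.025 for Scg2 with voom, and 1.03 for Pdyn with the replicate block.

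With a library left out, turns came within these ranges. In m6A at 24 h they were -0.34 to 0.24 for Pdyn, -0.043 to 0.24 for Cck and -0.20 to 0.49 for Sst. In m6A at 2 weeks they were -0.82 to 0.23 for Vgf, -0.43 to 0.46 for Pdyn, -0.33 to 0.20 for Tac1, -0.035 to 0.14 for Cck and -0.16 to 0.34 for Nts. In input they were -0.037 to 0.18 for Cck and -0.087 to 0.67 for Scg2 at 24 h, and -0.18 to 0.52 for Pdyn and -1.19 to 0.083 for Tac1 at 2 weeks. Between times they were -0.16 to 0.29 for Npy, -0.30 to 0.48 for Penk, -0.39 to 0.50 for Pdyn, -0.17 to 0.10 for Cck and -1.11 to 0.018 for Nts. For m6A over input they were -0.30 to 0.69 for Pdyn and -0.40 to 0.68 for Tac1, and for its change -0.95 to 0.026 for Penk, -0.73 to 0.27 for Pdyn and -0.090 to 1.18 for Tac1.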
